A study of Jatropha curcas with 10 samples.

Results

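The 60 genes described here are those whose transcripts stood highest above the 0 h level through both 6 and 12 h after GA3 and came back toward it by 48 h, in inflorescence meristems, the shoot tips from which flowers arise, of Jatropha curcas, an oilseed shrub. They are 60 of 28447 gene IDs, and 56 carry JCGZ locus tags while 4 carry IDs of another kind (such as Novel00304). The tables hold IDs without names, and 0 of the IDs matched a RefSeq table of 28617 genes, so no member is given a function, a position or a sequence, and the tissue could not be checked against marker genes. Gibberellins are plant hormones that act through the GID1 receptors: the hormone-bound receptor marks the DELLA repressors for degradation and so frees the genes that DELLA proteins hold back. In shoot tips this pathway is known for its part in stem elongation and in the timing of flowering, and it restrains itself through hormone-inactivating enzymes. GA3 is a gibberellin that is supplied from outside.

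The samples were meristems of 3-year-old plants, sequenced as total RNA at 0, 6, 12, 24 and 48 h after GA3, with 2 libraries per time and 15934189 to 24448219 reads per library. The labels give neither the dose nor untreated plants at the later times, so the hormone, the hours passed and the hour of sampling cannot be told apart. Whether the 2 libraries of each time are separate plants is not stated. In a whole tissue, more cells of a type and more RNA per cell cannot be told apart either.

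The members were chosen from measured values, so their rise is a description and carries no test. Values are RPKM, that is reads scaled to gene length and to library size, and changes are differences of mean log2(RPKM + 1). Genes had to average at least 5 RPKM over the 10 libraries, to lie above 0 h at 6 and 12 h, to keep at 12 h at least 0.5 times the 6 h change, and to keep at 48 h less than 0.5 times the 12 h change. Of the 3149 genes that met these conditions, the 60 with the widest margin between the lowest library of 6 and 12 h and the highest library of 0 h were taken. The margins ran from 4.35 down to 0.86 (log2). Just inside, JCGZ_01559, JCGZ_06149 and JCGZ_15688 had margins of 0.8645, 0.8599 and 0.8553, and just outside, JCGZ_07238, JCGZ_09316 and JCGZ_14249 had 0.8495, 0.8476 and 0.8473. The boundary is therefore a point on a continuous scale. The 24 h libraries entered the choice only through the mean over all libraries.

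The joint share of the 60 genes in the reads averaged 0.118% ± 0.020 for the 0 h libraries and 0.672% ± 0.156 after 6 h. It averaged 0.492% ± 0.014 after 12 h, 0.123% ± 0.025 after 24 h and 0.143% ± 0.053 after 48 h (SD, n = 2 libraries per time). The median member stood at 6.84 and 6.22 RPKM in the libraries of 0 h, 54.5 and 41.9 RPKM at 6 h, 43.9 and 28.5 RPKM at 12 h, 7.36 and 7.09 RPKM at 24 h, and 8.79 and 5.93 RPKM at 48 h. By this median the members were a set of low transcripts that became moderately abundant for part of the first day. At 0 h, 4 members averaged under 1 RPKM, 34 averaged 1 to 10 RPKM and 22 more than 10 RPKM. The change from 0 h had a median of 2.24 at 6 h and 1.90 at 12 h (log2), against 0.04 and 0.08 over the 17403 genes that averaged 1 RPKM or more (called all genes from here on), and all 60 members are among those genes. In the limma fit across them, 36 members passed an adjusted p of 0.05 upward at 6 h and 28 at 12 h, where 0.483% and 0.241% of all genes did. Nothing is read from these counts, because the choice used the same contrasts. With a single library of 0 or 6 h left out, the median change at 6 h was 2.08 to 2.43 (log2). With a single library of 0 or 12 h left out, that at 12 h was 1.82 to 2.13. Such fits leave 1 library at a compared time, so their counts are not given. The 12 h count was 43 with the library number as a block, where 0.672% of all genes passed upward. That block is not suited to a contrast with 0 h. The differences between the libraries of 0 h did not follow those of the treated times (correlations of -0.32 to -0.14).

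**Figure D1:**
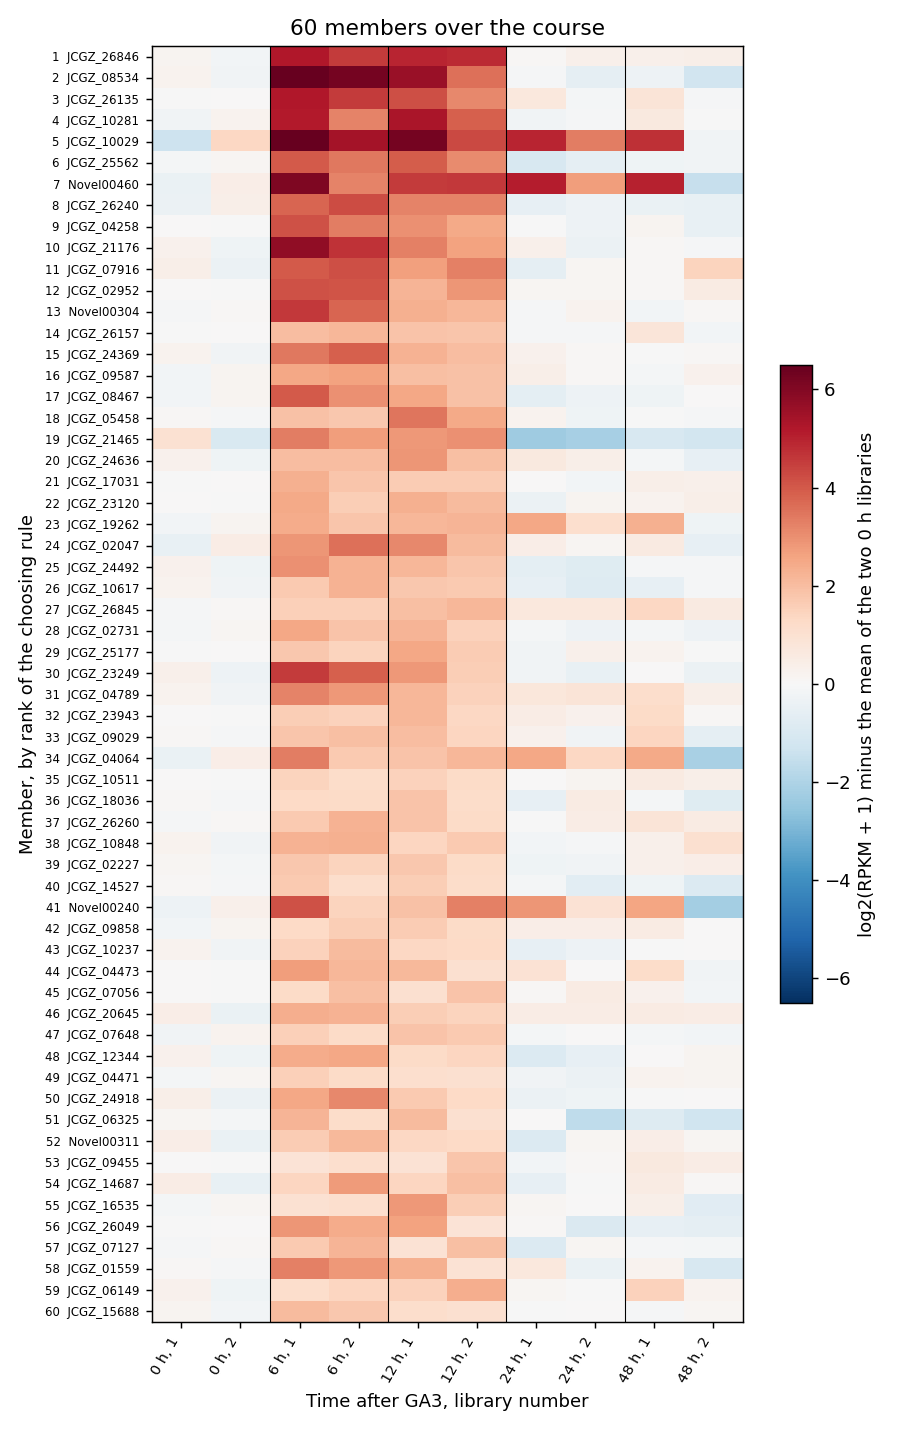
Change of each of the 60 members in each of the 10 libraries, as log2(RPKM + 1) minus the mean of the 0 h libraries (colour, red higher and blue lower); rows follow the rank of the choosing rule and columns follow time after GA3 and library number. All rows are red in the 4 libraries of 6 and 12 h, most are near white at 24 and 48 h, and 5 rows stay red at 24 h and in library 1 of 48 h.

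JCGZ_26846 (1275 bases of coding sequence) had the widest margin. It had 1.01 and 0.532 RPKM at 0 h, 64.2 and 40.0 RPKM at 6 h, 52.8 and 49.9 RPKM at 12 h, 0.823 and 1.22 RPKM at 24 h, and 1.24 and 1.31 RPKM at 48 h. These rest on 23 and 13 reads at 0 h and on 915 to 1390 reads in each library of 6 and 12 h. The levels of 6 and 12 h overlapped, and so did those of 24 and 0 h, so the course had the form of a plateau.

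JCGZ_08534 (510 bases) was already lower at 12 h than at 6 h. It had 7.76 and 5.32 RPKM at 0 h, 729 and 559 RPKM at 6 h, 358 and 88.4 RPKM at 12 h, 5.95 and 4.01 RPKM at 24 h, and 5.02 and 2.18 RPKM at 48 h. Its libraries of 12 h differed 4-fold from each other, both lay below both of 6 h, and those of 48 h lay below those of 0 h. JCGZ_21176 (510 bases) showed the steepest step down between 6 and 12 h among the first 10 members, with 132 and 62.2 RPKM at 6 h and 22.7 and 14.0 RPKM at 12 h, and it was back at 2.06 and 0.882 RPKM at 24 h against 1.97 and 1.02 RPKM at 0 h. JCGZ_26135 (393 bases) had 3.69 and 3.85 RPKM at 0 h, 176 and 112 RPKM at 6 h and 85.1 and 40.5 RPKM at 12 h. In all 3 genes both libraries of 12 h lay below both of 6 h.

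The remaining members of the first 10 that returned by 24 h were of 2 kinds. In JCGZ_26240 and JCGZ_04258 both libraries of 12 h lay below both of 6 h. JCGZ_26240 (612 bases) had 143 and 196 RPKM at 6 h and 96.0 and 97.9 RPKM at 12 h, and JCGZ_04258 (771 bases) had 29.0 and 15.8 RPKM at 6 h and 12.1 and 8.49 RPKM at 12 h. JCGZ_25562 (576 bases), with 69.2 and 46.2 RPKM at 6 h and 65.7 and 35.8 RPKM at 12 h, and JCGZ_10281 (237 bases), with 68.8 and 17.9 RPKM at 6 h and 78.9 and 28.5 RPKM at 12 h, held their level within the spread of the libraries. JCGZ_10281 rested on 3 and 6 reads at 0 h, so its starting level is known only roughly. Novel00304 (593 bases) had 1 and 2 reads at 0 h and 254 and 158 reads at 6 h, and Novel00311 (2064 bases) was among the lower members, with 3.43 and 1.52 RPKM at 0 h, 9.55 and 13.2 RPKM at 6 h and 7.56 and 7.28 RPKM at 12 h.

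The most abundant member was JCGZ_21465 (348 bases), which had 902 and 223 RPKM at 0 h, 4549 and 2922 RPKM at 6 h, 3127 and 3515 RPKM at 12 h, 90.1 and 100.1 RPKM at 24 h, and 217 and 192 RPKM at 48 h. Both libraries of 24 h and both of 48 h lay below both of 0 h, although the libraries of 0 h differed 4-fold from each other. JCGZ_24492 (567 bases) had 187 and 126 RPKM at 0 h, 1218 and 748 RPKM at 6 h, 678 and 546 RPKM at 12 h and 97.6 and 88.9 RPKM at 24 h. JCGZ_23249 (483 bases) peaked at 1173 and 741 RPKM at 6 h, against 354 and 152 RPKM at 12 h. These 3 short transcripts carried the highest levels over 6 and 12 h together with JCGZ_04064, described with the late genes.

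**Figure D2:**
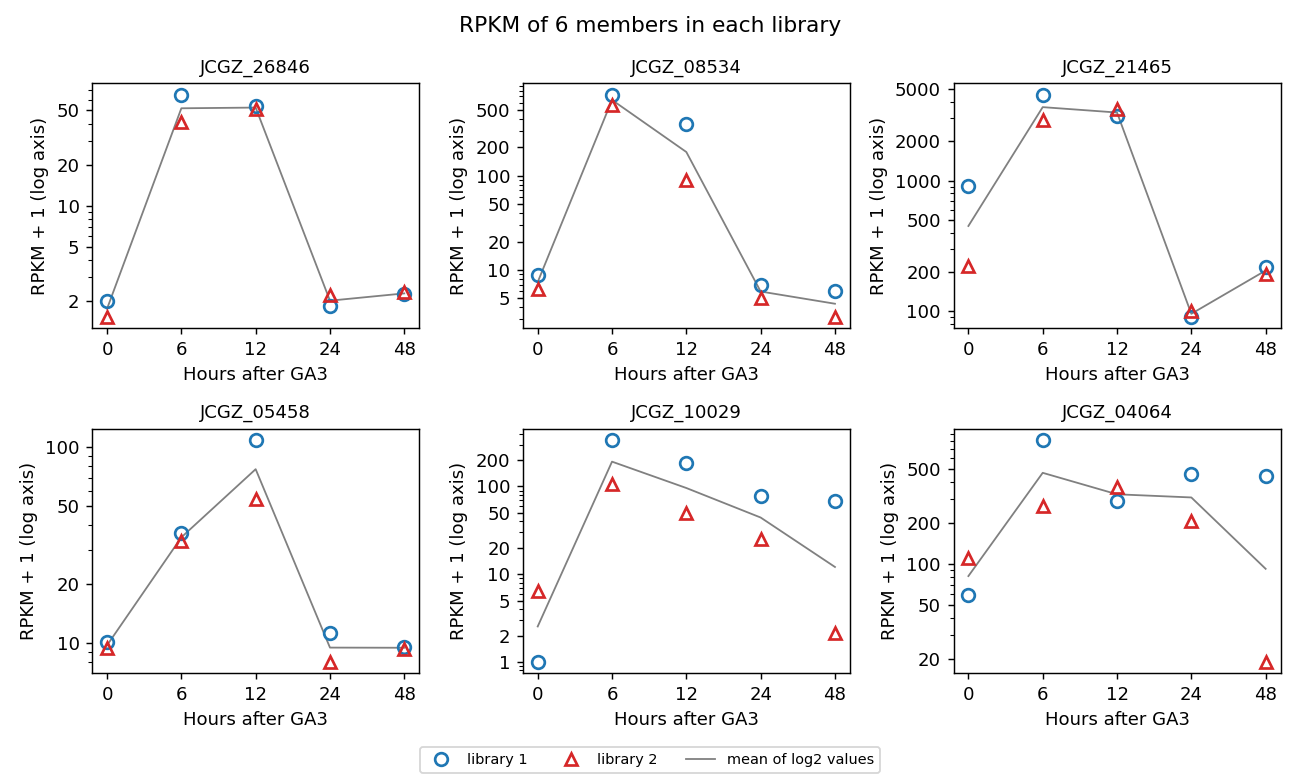
RPKM + 1 (log axis, a separate scale for each gene) against hours after GA3 for 6 members; circles are library 1, triangles library 2 and the line joins the means of the log2 values. JCGZ_26846 holds its level from 6 to 12 h, JCGZ_08534 is lower at 12 h, JCGZ_21465 drops below its 0 h level, JCGZ_05458 peaks at 12 h, and JCGZ_10029 and JCGZ_04064 stay high at 24 h and in library 1 of 48 h.

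Within the set, the 6 h level was the higher one more often. The mean was higher at 6 h in 44 members and at 12 h in 16, and the difference of 12 h minus 6 h had a median of -0.41 (log2), against 0.02 over all genes. Both libraries of 12 h lay below both of 6 h in 26 members (14.0% of all genes), and above in 5 (11.5% of all genes). The members higher at 6 h had a median length of 735 bases and those higher at 12 h one of 1164 bases. With limma 0 of the 60 passed an adjusted p of 0.05 in either direction between 12 h and 6 h, 20 reached an unadjusted p under 0.05 (853 of all genes), and with voom 0 passed. Over all genes 0.00575% were called higher and 0.121% lower. With the library number as a block among the 8 treated libraries, 7 members were called lower at 12 h than at 6 h and 0 higher (0.557% and 0.293% of all genes). With the block over all 10 libraries 2 were called lower (0.287% of all genes). The choice used the libraries of both times, so these numbers describe the set.

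The largest gains from 6 to 12 h were those of JCGZ_16535, JCGZ_05458 and JCGZ_06149, with 1.17, 1.15 and 0.67 (log2). JCGZ_05458 (366 bases) had 9.14 and 8.41 RPKM at 0 h, 35.3 and 32.2 RPKM at 6 h, 108 and 53.7 RPKM at 12 h, 10.3 and 7.04 RPKM at 24 h, and 8.63 and 8.36 RPKM at 48 h. Each library of 12 h lay above each of 6 h. JCGZ_16535 (231 bases) had 7.06 and 7.49 RPKM at 6 h and 27.7 and 11.1 RPKM at 12 h, and JCGZ_06149 (612 bases) had 8.92 and 10.8 RPKM at 6 h and 11.7 and 22.1 RPKM at 12 h. All 3 were within 1 RPKM of their mean level of 0 h by the mean of 24 h.

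The 24 h libraries are where the course could have gone otherwise, since the rule set no condition on them. At 24 h the members were back near the level of 0 h. The median change of 24 h against 0 h was -0.04 (log2; quartiles -0.33 and 0.23), against -0.15 over all genes, and it was 0.14 with each library centred on its median gene and 0.12 with quantile normalization, so its sign depends on the scaling. It was 0.04 without library 1 of 0 h, -0.06 without library 2 of 0 h, 0.01 without library 1 of 24 h and -0.04 without library 2 of 24 h. The median was -0.02 between the libraries of number 1 and 0.04 between those of number 2. Limma called 0 members at 24 h against 0 h (0.0% of all genes were called in either direction), an unadjusted p under 0.05 was seen in 4 members and 574 of all genes, and with voom 0 members passed. Both libraries of 24 h lay above both of 0 h in 14 members (9.02% of all genes) and below them in 13 (21.2% of all genes). The 0 h libraries of members were picked for being low, which favours the higher count. Relative to the 12 h change, 32 of the 60 members were below their 0 h mean at 24 h, as were 11607 of all 17403 genes, 23 kept up to 0.5 of the change and 5 kept more.

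The libraries of 6 and 12 h had been chosen for high values, which favours a lower level at 24 h, so the comparisons of 24 h with them are a description and nothing is read from their counts. The median change from 12 to 24 h was -1.86 (log2), against -0.22 over all genes, and that from 6 to 24 h was -2.21, against -0.18 over all genes. Both libraries of 24 h lay below all 4 of 6 and 12 h in 55 members, and in 18.0% of all genes. In the limma fit 31 members passed an adjusted p of 0.05 as lower at 24 h than at 12 h and 0 as higher, where 0.305% of all genes were lower and 0.85% higher. With the library number as a block among the 8 treated libraries 51 members passed as lower, where 4.26% of all genes were lower and 2.9% higher. On the 4 libraries of 12 and 24 h alone the count was 0, and 0 of all genes were called in either direction. With a single library of 12 or 24 h left out, the median change from 12 to 24 h was -2.01 to -1.74 (log2). Against 6 h, 33 members passed as lower at 24 h and 0 as higher (0.563% and 0.293% of all genes). That count was 11 on the 4 libraries of 6 and 24 h alone, where 21 of all genes were lower and 3 higher. With a single library of 6 or 24 h left out, the median change from 6 to 24 h was -2.27 to -2.08 (log2).

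Among the named members, the difference of 24 h minus 12 h was widest for JCGZ_21465, at -5.11 ± 0.58 (log2, SE), with 90.1 and 100.1 RPKM at 24 h and 3127 and 3515 RPKM at 12 h. It was -4.92 ± 0.61 for JCGZ_08534, -4.77 ± 0.66 for JCGZ_10281, -4.70 ± 0.31 for JCGZ_26846, -4.31 ± 0.36 for JCGZ_25562 and -3.65 ± 0.30 for JCGZ_26240. JCGZ_10281 had only 3 and 5 reads at 24 h. In each of these genes both libraries of 24 h lay below all 4 of 6 and 12 h. No p-value is given for them, for the reason above. JCGZ_10029 and Novel00460, also among the first 10, had differences of -1.12 ± 1.59 and -0.64 ± 1.87, smaller than their standard errors.

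The members that went lowest at 24 h relative to their 12 h change were JCGZ_21465, JCGZ_12344, JCGZ_06325 and JCGZ_10617. JCGZ_12344 (1089 bases) had 13.8 and 17.9 RPKM at 24 h, against 32.3 and 21.8 RPKM at 0 h, and 27.5 and 29.8 RPKM at 48 h. Its 24 h libraries lay below both of 0 h and both of 48 h. JCGZ_10617 (2163 bases) had 3.60 and 2.76 RPKM at 24 h, against 6.88 and 4.68 RPKM at 0 h. JCGZ_06325 (588 bases) had 18.9 and 5.29 RPKM at 24 h, against 20.01 and 17.1 RPKM at 0 h, so there only library 2 was low. At 24 h against 0 h the change of JCGZ_21465 was -2.23 ± 0.58 and that of JCGZ_12344 was -0.72 ± 0.25 (log2, SE; limma adjusted p = 0.951 for each), neither of which passed.

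**Figure D3:**
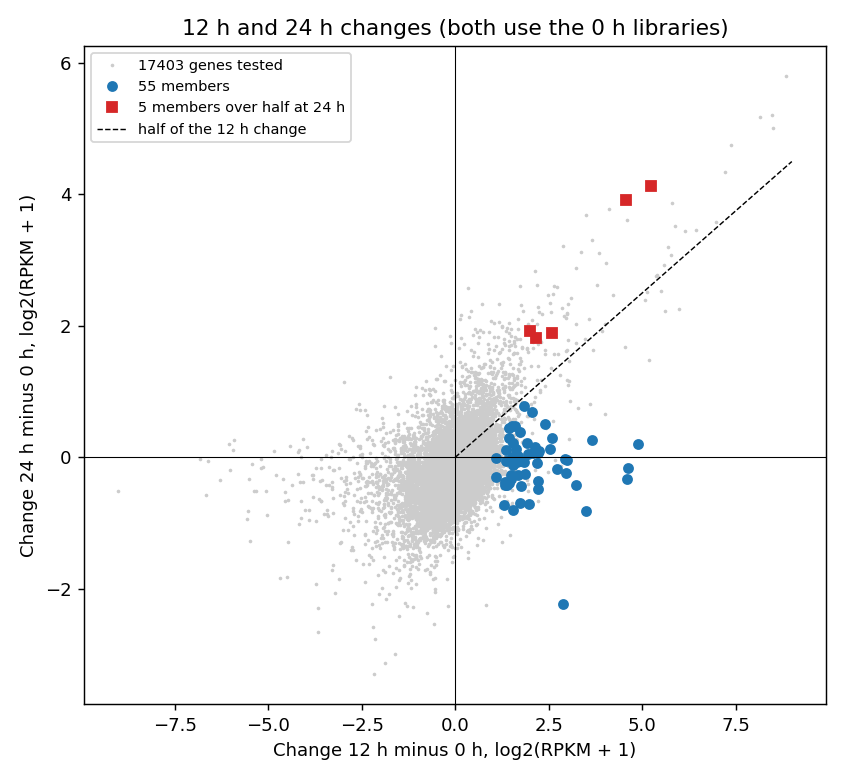
Change from 0 h at 24 h (vertical) against that at 12 h (horizontal), both in log2(RPKM + 1), for 17403 genes (grey), 55 members (blue circles) and the 5 members that kept over 0.5 of the 12 h change (red squares); the dashed line marks 0.5 of the 12 h change. Both axes use the 0 h libraries. The blue points lie between -2.23 and 0.79 on the vertical axis and the red squares between 1.82 and 4.13.

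At 24 h 5 members stood apart, namely JCGZ_10029, Novel00460, JCGZ_19262, JCGZ_04064 and Novel00240. They kept 0.79, 0.86, 0.84, 0.96 and 0.73 of their 12 h change at 24 h, whereas the other 55 kept at most 0.43 of it (JCGZ_04789). The change from 0 h of these 55 at 24 h had a median of -0.06 and a maximum of 0.79 (log2). JCGZ_10029 (240 bases) had 0 and 5.44 RPKM at 0 h, 340 and 107 RPKM at 6 h, 185 and 48.7 RPKM at 12 h, 76.8 and 24.2 RPKM at 24 h, and 66.7 and 1.16 RPKM at 48 h. JCGZ_04064 (231 bases) had 58.7 and 111 RPKM at 0 h, 822 and 267 RPKM at 6 h, 289 and 366 RPKM at 12 h, 457 and 208 RPKM at 24 h, and 446 and 18.1 RPKM at 48 h. In both genes the libraries of 24 h lay above those of 0 h, and at 48 h library 1 was still high while library 2 lay within or below the range of 0 h.

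The same split at 48 h held in the other 3. Novel00460 (536 bases) had 299 and 2.28 RPKM at 48 h, after 322 and 61.1 RPKM at 24 h, against 6.04 and 11.5 RPKM at 0 h. Novel00240 (637 bases) had 258 and 8.73 RPKM at 48 h, after 320 and 83.7 RPKM at 24 h, against 33.8 and 56.0 RPKM at 0 h. JCGZ_19262 (531 bases) had 10.2 and 0.838 RPKM at 48 h, after 11.8 and 3.85 RPKM at 24 h, against 0.945 and 1.57 RPKM at 0 h. Library 1 exceeded library 2 by 2.60 to 6.51 (log2) at 48 h, by 1.13 to 2.38 at 24 h and by 0.65 to 2.83 at 6 h in these 5 genes. At 12 h it was the higher library in 1 of the 5, with differences of -1.39 to 1.90 and a median of -0.07, and at 0 h in 0 of the 5. At 48 h, library 1 exceeded library 2 by more than 3 (log2) in 4 members, and in 0.373% of all genes.

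These 5 met the 48 h condition through library 2 of 48 h alone. Without that library 0 of the 5 were among the 60 chosen, while all 5 were chosen without library 1 of 48 h. Their joint share was 0.112% in library 1 and 0.021% in library 2 of 6 h, 0.0335% and 0.0496% in those of 12 h, 0.051% and 0.014% in those of 24 h, and 0.045% and 0.0012% in those of 48 h. The changes of 24 h against 0 h were 1.82 to 4.13 (log2) with a limma adjusted p of 0.951 for each of the 5. The grouping of these 5 was made after their values were seen.

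**Figure D4:**
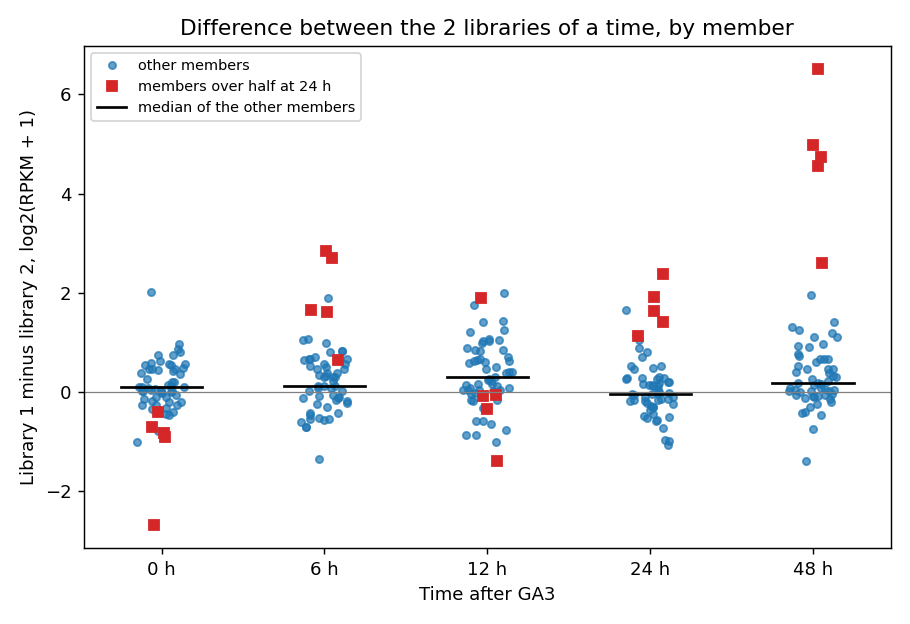
Difference of library 1 minus library 2 in log2(RPKM + 1) at each time, for the 5 members that kept over 0.5 of their 12 h change at 24 h (red squares) and the other 55 (blue circles; black bars are their medians). The red squares reach 2.60 to 6.51 at 48 h, where the blue points lie between -1.39 and 1.96.

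At 48 h the members as a set were close to 0 h, as the rule required. The median change was 0.11 (log2), against -0.02 over all genes, and 38 of 60 were above 0 h on average. Both libraries of 48 h lay above both of 0 h in 14 members (12.6% of all genes) and below them in 9 (17.6% of all genes), and they lay below all 4 of 6 and 12 h in 52 (13.1% of all genes). For 48 h against 24 h the median change was 0.08 (0.11 over all genes), -0.11 with each library centred on its median gene, 0.34 without library 2 of 48 h and -0.04 without library 1 of 48 h. Both libraries of 48 h lay above both of 24 h in 21 members (17.9% of all genes) and below them in 2 (8.5% of all genes). Limma called 0 members at 48 h against 24 h and 0 at 48 h against 0 h (0.0% of all genes in each direction), with 5 members and 1 member at an unadjusted p under 0.05 (329 and 793 of all genes), and voom called 0 in both.

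Beyond the rule, the members were shorter than other genes, with a median of 850.5 bases (quartiles 526 and 1425) against 1104 bases (696 and 1656) over all genes tested. The share of IDs without a JCGZ tag was 6.67%, against 5.28%. The members also differed between the library numbers: library 1 minus library 2 had a median of 0.30 (log2) in the members at 6 h and 0.25 at 12 h, against -0.15 and -0.11 over all genes. It was 0.03 against -0.17 at 24 h, 0.25 against -0.04 at 48 h and 0.05 against 0.14 at 0 h. The part of length and library number in the choice of members was not tested. The members' libraries of 24 h agreed more closely than those of genes with at least 5 RPKM, with a median absolute difference of 0.29 against 0.47 (log2). At 0, 6 and 12 h they agreed less closely, with 0.36 against 0.29, 0.49 against 0.34 and 0.58 against 0.48. At 48 h the values were 0.40 against 0.43.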

How the data were processed

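The authors' deposited tables hold 1 value for each of 28447 gene IDs in each of 10 libraries. The authors' deposited values were taken as RPKM, a scaling by length and depth that the authors had applied, since low values step in units set by length and depth; the tables name no unit. Bowtie 0.12.2 and mm8, a mouse build, appear without a role in the submitters' processing notes. The genome, the counting method and the filters were "not given in the sources used here". Reads and gene lengths were recovered from the ratios between values (100.0% of values within 0.01 of a whole read, after steps tested on simulated data). Of the JCGZ lengths 99.9% are multiples of 3 and so coding lengths. Of the other lengths 34.1% are multiples of 3, so these are not shown to be coding. At 1 kb, 3 reads correspond to 0.123 to 0.188 RPKM, which covers counting error only.

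Tests used limma 3.58.1 (R 4.3.3; trend, robust) on log2(RPKM + 1), a scale that understates changes of low genes, for the 17403 genes averaging 1 RPKM or more. Time was a factor in a single model of the 10 libraries, and p-values were Benjamini-Hochberg adjusted over all genes within a comparison. Such p-values reflect the spread of these libraries alone, which may be technical. Libraries of a time shared 0 identical values above 0, and their reads differed by 57.0 to 169.8 chi-square per degree of freedom. The library numbers paired the 8 treated libraries (correlation of the differences between libraries of 0.54 to 0.70 for the 6 pairs of times) and not those of 0 h (-0.32 to -0.14). Alternatives were another pseudocount, filters, scaling, moderation, single libraries left out, a replicate block, a length correction and limma-voom on recovered reads.

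Named genes are the first 10 by rank, the 4 most abundant over 6 and 12 h, the 4 highest and 4 lowest in the share of the 12 h change kept at 24 h, the 3 largest gains from 6 to 12 h, ranks 58 to 63 and the members without a JCGZ tag. The members, lists and tests were chosen with earlier results of these data known. Lists by gene name could not be run, because the IDs have no names here.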

Additional observations from a re-analysis of the deposited data

How the results depend on the processing

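The counts of 0 members at 24 h and 48 h against 0 h, and at 48 h against 24 h, held in all alternatives run. With single libraries left out, 4 to 24 members were called at 24 h against 12 h, 15 to 33 at 24 h against 6 h, 5 to 35 at 6 h against 0 h, 3 to 24 at 12 h against 0 h and 0 at 12 h against 6 h. In these fits the calls over all genes in the members' direction also fell below those of the main fit, except at 12 h against 6 h. These ranges are therefore not particular to the members, and some of the fits leave a single library at a compared time. On the 4 libraries of the compared times, 0 members and 0 of all genes were called at 24 h against 12 h. At 24 h against 6 h 11 members were called lower, where 21 of all genes were lower and 3 higher. Voom on recovered reads called 22 members lower at 24 h against 12 h and 30 at 24 h against 6 h. Over all genes 36 and 71 were lower and 95 and 26 higher. It called 28 members higher at 6 h against 0 h and 20 at 12 h against 0 h, where 64 and 30 of all genes were higher and 80 and 170 lower. A replicate block raised 28 members at 12 h against 0 h to 43, and to 44 with a length correction. Over all genes 117 and 156 were then higher and 409 and 563 lower. The library numbers did not pair the 0 h libraries with the treated ones, so the block is not suited to this contrast. Both fits called 2 members lower at 12 h against 6 h, where 50 and 55 of all genes were lower and 5 and 8 higher. The block among the 8 treated libraries, added after seeing the data, called 51 members lower at 24 h against 12 h and 7 at 12 h against 6 h. Over all genes 741 and 97 were lower and 504 and 51 higher. That block changed no other count of members by over 1.5 times. The median change of the members at 24 h against 0 h was 0.14 with centred libraries, 0.12 with quantile normalization and -0.0645 to 0.0411 with single libraries left out. At 24 h against 12 h it was -2.05 with a pseudocount of 0.1, -1.64 with centring, -1.67 with quantile normalization and -2.01 to -1.74 with single libraries left out. At 48 h against 24 h it was -0.11 with centring and -0.0417 to 0.34 with single libraries left out. Counts that involve 6 or 12 h rest on libraries chosen for high values and are descriptions. The cause of these shifts was not tested.

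Of the 60 members, 49 to 55 were chosen again with another pseudocount, scaling or minimum level, and 37 to 53 without a single library, lowest without library 2 of 6 h. Changes of uncalled members turned sign from 12 to 24 h for JCGZ_04064 with centring (0.14) and with single libraries left out, where JCGZ_04064 ran from -0.64 to 0.49, Novel00460 from -1.83 to 0.54, JCGZ_19262 from -1.05 to 0.35 and Novel00240 from -1.65 to 0.27. Depth limits the members with few reads at 0 h, such as JCGZ_10281 and Novel00304.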

Other observations

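JCGZ_26846, the member with the widest margin, and JCGZ_26845, at rank 27, carry consecutive locus tags; this pair was picked after its values were seen. JCGZ_26845 (1248 bases) had 30.5 and 34.8 RPKM at 0 h, 97.6 and 96.7 RPKM at 6 h, 130 and 146 RPKM at 12 h, 52.3 and 53.6 RPKM at 24 h, and 84.5 and 49.5 RPKM at 48 h. All its later libraries lay above both of 0 h. In JCGZ_26846 the 24 h libraries overlapped those of 0 h, and the 48 h libraries, at 1.24 and 1.31 RPKM, also lay above both of 0 h, at 1.01 and 0.532 RPKM. The changes of JCGZ_26845 at 24 h and 48 h against 0 h were 0.68 ± 0.27 and 0.97 ± 0.27 (log2, SE), with limma adjusted p values of 0.951 and 0.936. Reads shared between similar genes cannot be told apart in these tables, and whether these genes are similar in sequence was not analysed here.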
